A study of Mus musculus with 6 samples.

Results

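Complement is a cascade of plasma and tissue proteins that marks microbes and damaged cells, releases the anaphylatoxins C3a and C5a and can end in a pore in the target membrane. Separate routes start it (the classical route through C1q, the lectin route through MASP proteases and the alternative route through factors B and D), all routes meet at C3, and soluble and membrane-bound regulators hold the cascade in check. Most plasma complement is made in the liver, but lung stromal, epithelial and myeloid cells also express complement genes, and shock followed by reperfusion is a setting in which complement is known to be activated. The description below covers 31 genes of this system, chosen by symbol from the 54532 genes of the deposited read counts. They comprised 7 genes of the classical pathway, 4 of the lectin pathway, 4 of C3 and the alternative pathway, 4 of the terminal pathway, 3 soluble regulators, 4 membrane regulators and 5 receptors.

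RNA was sequenced from the lungs of 3 GRdim/dim and 3 GR+/+ mice, which are littermates on a 129/SvEv x C57BL/6 background from a cohort aged 10 to 16 weeks. In GRdim/dim mice every cell carries a glucocorticoid receptor (GR) with a point mutation in its DNA-binding part, and the receptor forms dimers poorly. All 6 mice had been bled to a pressure of 35 mmHg, kept in this hemorrhagic shock (HS) for 1 h, given their blood back and resuscitated for 4 h under anesthesia, ventilation and norepinephrine, so every value below is a value after HS and no unshocked lung was measured. The levels of *Xist* and of Y-linked genes mark GR+/+ replicate 1 and GRdim/dim replicates 1 and 3 as male, so that sex is unevenly divided between the genotypes. The comparison asks which complement genes differ in lung RNA when GR dimerization is impaired.

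Library totals lay between 15687734 and 32082940 counts. Levels are given as CPM, the counts scaled to library totals with edgeR's TMM factors. The lung identity of the libraries was checked on 8 alveolar type 2 genes, whose summed level was 17146 to 24931 CPM in GR+/+ and 17217 to 25412 CPM in GRdim/dim lungs. The hepatocyte gene *Alb* had 0.359 to 2.88 CPM in 5 libraries and 47.5 CPM in GR+/+ replicate 3. Gene counts do not show the GR mutation itself. Among 10 glucocorticoid-induced genes, 5 had an unadjusted edgeR *p* under 0.05 with lower expression in GRdim/dim lungs and 0 with higher expression. The other 5 had log2 fold changes above 0. Over all genes tested, 4.68% had such a *p* with lower and 4.91% with higher expression. The summed level of the list overlapped between genotypes (1662 to 2197 CPM in GR+/+ and 1513 to 2344 CPM in GRdim/dim lungs). In whole lung, a change in the number of cells of a type and a change of RNA per cell cannot be told apart.

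Complement genes spanned a wide range of levels. Per kilobase of gene model, which allows genes to be compared, the highest mean levels over the 6 libraries belonged to *Serping1*, the inhibitor of the C1 proteases (184 CPM per kb), *C3* (164 CPM per kb), *Clu*, the fluid-phase regulator clusterin (158 CPM per kb), and *C7*, a component of the membrane attack complex (118 CPM per kb). The ranges of these genes over the libraries overlapped (128 to 228, 112 to 280, 132 to 224 and 54.6 to 181 CPM per kb), so their order is not firm. *Hc*, which encodes C5, and *C4b* followed with 62.1 and 61.4 CPM per kb. At the low end stood *Vsig4*, a complement receptor of tissue macrophages, with 0 to 9 counts in a library, *Cfb* with 3 to 39 counts and *Colec11*, a collectin that recruits MASP proteases, with 2 to 18 counts. These 3 genes did not pass the filter on low counts, and 28 genes were tested.

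**Figure D1:**
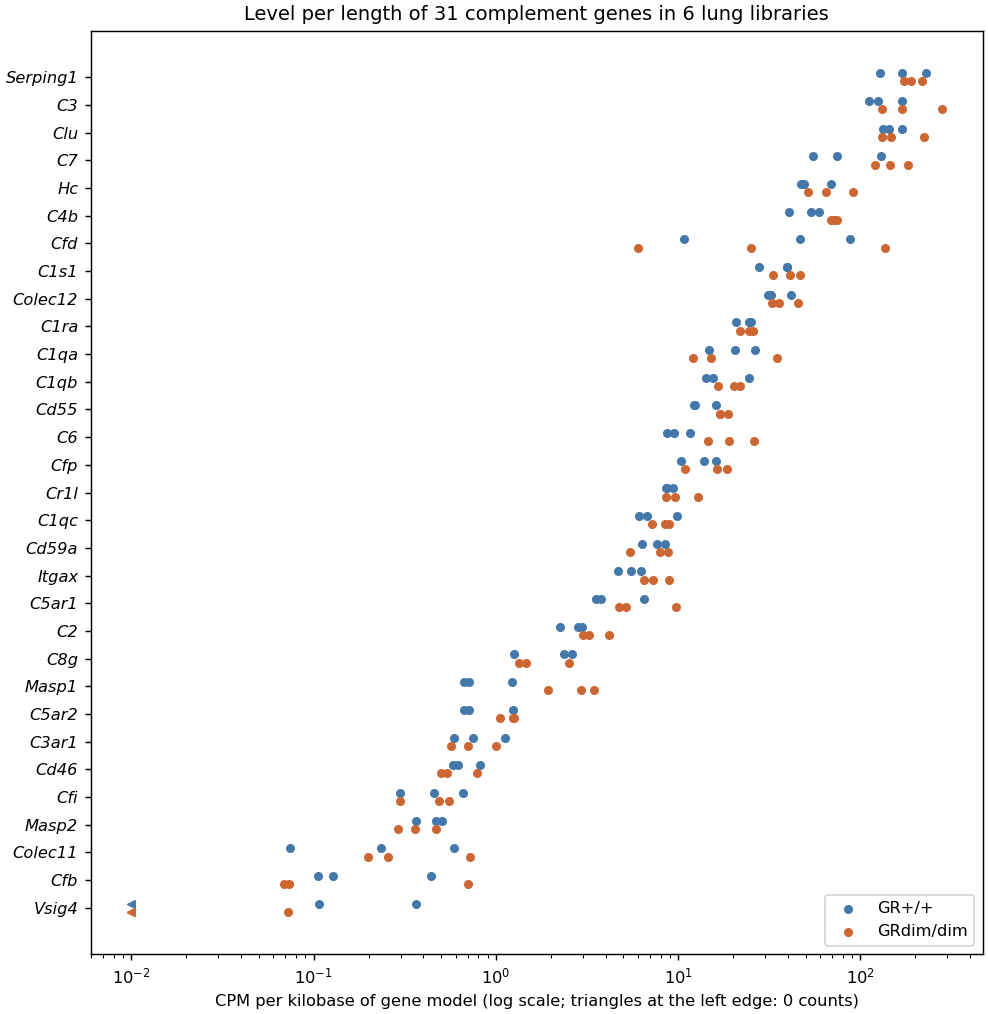
Level of the 31 complement genes in CPM per kilobase of gene model on a log axis, with 1 point per library (blue GR+/+, orange GRdim/dim) and genes ordered by their mean over the 6 libraries. *Serping1*, *C3*, *Clu* and *C7* lead with overlapping ranges. The genotypes do not overlap for *Masp1*, *C2*, *C4b*, *C6*, *Cd55* and *Itgax* (21.4% of the 28 tested, against 7.77% of all genes in this direction). Among the 28 tested genes, *Cfd* has the widest spread on this log axis (5.99 to 136 CPM per kb).

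For cell surface regulators, *Colec12*, a scavenger receptor of the collectin family, and receptors, the levels per length were lower than those of the leading secreted components. *Colec12* had 36.5 CPM per kb on the deposited gene length of 3322 bases, which is shorter than the 8725 bases of its exons in the GENCODE M21 annotation. *Cd55* reached 15.5, *Cr1l* 9.60 and *C5ar1*, the C5a receptor, 5.57 CPM per kb.

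None of the 28 tested genes was called by edgeR's quasi-likelihood test, where a call needed both a log2 fold change beyond 0.5 and an adjusted *p* below 0.05, against 0.169% of the 16568 genes tested overall. DESeq2 called 2 of 29 complement genes, *Masp1* and *C6*, against 1.7% of the 16150 genes to which it gave an adjusted *p*-value. Before adjustment, 6 of the 28 genes (21.4%) had an edgeR *p*-value under 0.05 with higher expression in GRdim/dim lungs, against 4.91% of all genes tested. These were *Masp1*, *C6*, *C7*, *C4b*, *Cd55* and *Itgax*. None was lower at that level, against 4.68% of all genes. The number higher was 2 without GRdim/dim replicate 1, 3 without GR+/+ replicate 2 and 3 without GR+/+ replicate 3.

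The log2 fold change was above 0 for 22 and below 0 for 6 of the 28 genes, with a median of 0.19, against a median of 0.01 over all genes tested. All GRdim/dim libraries lay above all GR+/+ libraries for 6 genes (21.4%, against 7.77% of all genes), namely *C2*, *C4b*, *C6*, *Masp1*, *Cd55* and *Itgax*, and below them for 0 genes (against 7.05% of all genes). Complement genes share cells and regulators, so they are not independent observations. For a single gene, the two-sided exact permutation test over the 6 libraries has 0.1 as its smallest possible *p*-value.

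**Figure D2:**
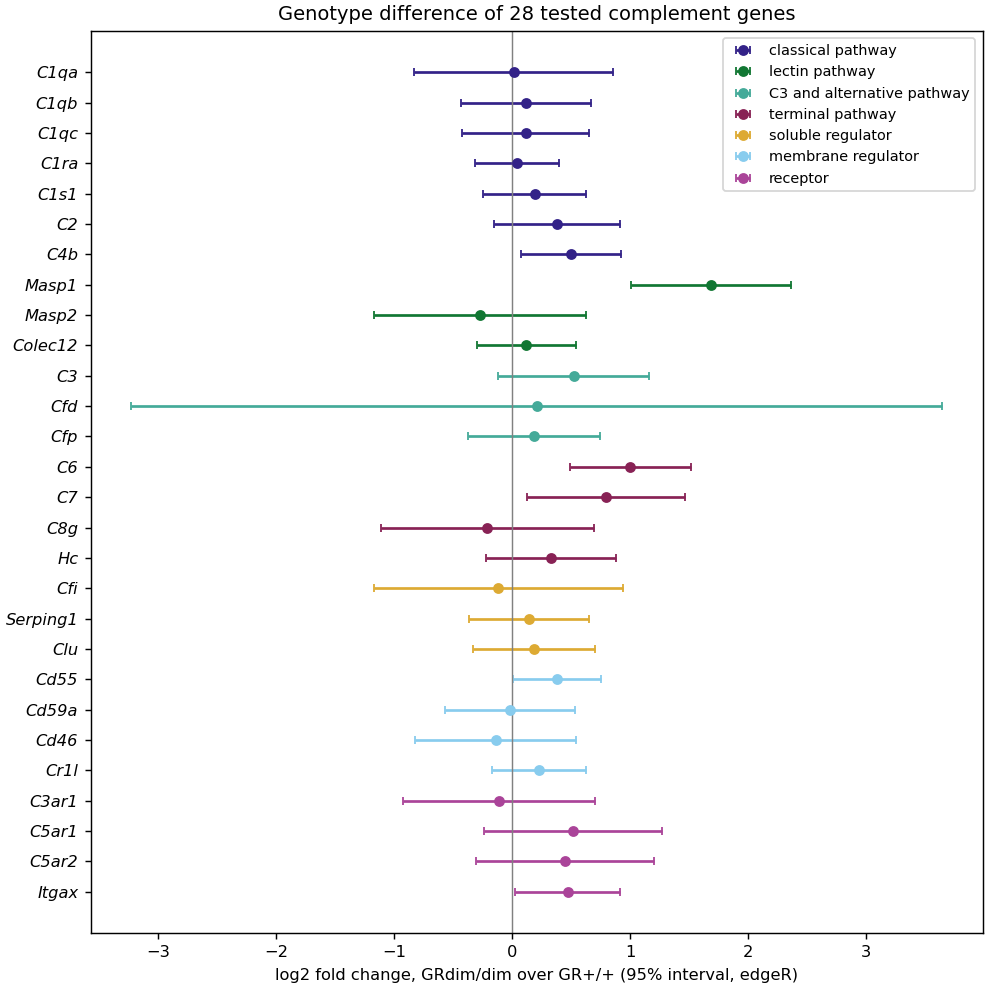
Log2 fold change of GRdim/dim over GR+/+ for the 28 tested complement genes, with 95% intervals from the edgeR fit and colors by role. The intervals of *Masp1*, *C6*, *C7*, *C4b*, *Cd55* and *Itgax* lie above 0, and that of *Cfd* is the widest.

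*Masp1* showed the largest fold change of the complement genes tested. It encodes the lectin-pathway protease MASP-1, the protease MASP-3 and the inhibitory fragment MAp44, which gene counts do not separate. Located on chromosome 16 of GRCm38 from 23449417 to 23520815 (ENSMUSG00000022887), it had 6.99, 11.99 and 6.54 CPM in GR+/+ replicates 1, 2 and 3 and 28.6, 33.9 and 19.1 CPM in GRdim/dim replicates 1, 2 and 3. The lowest GRdim/dim library was therefore above the highest GR+/+ library. The means were 8.51 ± 3.02 CPM in GR+/+ and 27.2 ± 7.55 CPM in GRdim/dim lungs (SD, n = 3 each). DESeq2 gave a log2 fold change of 1.68 with an adjusted *p* of 1.85e-05. The same log2 fold change came from edgeR, with a standard error of 0.30, a 95% interval of 1.01 to 2.36 and an adjusted *p* of 0.0730. Over all alternatives its adjusted *p* lay between 1.91e-07 and 0.231. DESeq2 called it whichever library was left out. Its transcripts share 0.216% of their 31-base windows with other genes.

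The other lectin-pathway genes did not share this difference in size. *Masp2*, which encodes the protease that cleaves C4 and C2, had 1.48 ± 0.247 CPM in GR+/+ and 1.23 ± 0.300 CPM in GRdim/dim lungs (SD, n = 3 each; log2 fold change -0.28, 95% interval -1.17 to 0.62, adjusted *p* = 0.905 from edgeR). Exons of *Tardbp* on the opposite strand cover 54.9% of the *Masp2* exons, and whether reads were counted by strand is not given in the sources used here. The ratio of *Masp1* to *Masp2* was 4.18 to 10 in GR+/+ and 12.3 to 35.5 in GRdim/dim libraries, a ratio chosen after the values had been seen. *Colec12* had 104 to 139 CPM in GR+/+ and 109 to 151 CPM in GRdim/dim lungs (log2 fold change 0.12, adjusted *p* = 0.915 from edgeR). *Colec11* counts stayed under 20 in every library, with overlapping genotypes.

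The terminal pathway held the next difference. *C6*, which binds C5b and starts assembly of the membrane attack complex, lies on chromosome 15 from 4727175 to 4814967 (ENSMUSG00000022181). Its level was 31.02, 33.6 and 41.3 CPM in the GR+/+ and 67.2, 92.8 and 51.5 CPM in the GRdim/dim libraries, so that the genotypes did not overlap. The group means were 35.3 ± 5.35 and 70.5 ± 20.8 CPM (SD, n = 3 each). DESeq2 called the gene (adjusted *p* = 0.0107) and edgeR did not (log2 fold change 0.998, standard error 0.23, 95% interval 0.49 to 1.51, unadjusted *p* = 0.00137, adjusted *p* = 0.175). Leaving out GRdim/dim replicate 2, the library with the highest *C6*, gave a log2 fold change of 0.75 and ended the DESeq2 call, as did leaving out GR+/+ replicate 1 or 2, with adjusted *p*-values of 0.173, 0.130 and 0.102. Over all alternatives the adjusted *p* of *C6* lay between 0.000217 and 0.404.

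*C7*, which joins the C5b-C6 complex and anchors it to the membrane, lies on the same chromosome from 4988762 to 5063740 (ENSMUSG00000079105), 174 kb from *C6* and on the opposite strand. It had 348, 198 and 146 CPM in GR+/+ and 485, 389.8 and 321 CPM in GRdim/dim lungs. The genotypes overlapped, since GR+/+ replicate 1 lay above GRdim/dim replicate 3. Its log2 fold change was 0.79 (standard error 0.30, 95% interval 0.12 to 1.46, adjusted *p* = 0.443 from edgeR), and it was 1.22 without GR+/+ replicate 1, where DESeq2 called the gene (adjusted *p* = 0.00238, with 0.00238 to 0.686 over all alternatives).

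*Hc* encodes C5, the precursor of C5a and C5b. It had 306, 294 and 434 CPM in GR+/+ and 407, 570.2 and 322 CPM in GRdim/dim lungs (log2 fold change 0.33, 95% interval -0.22 to 0.88, adjusted *p* = 0.752 from edgeR). The balance of *C6* to *Hc* varied little within a genotype. Their ratio was 0.101, 0.114 and 0.0951 in GR+/+ and 0.165, 0.163 and 0.160 in GRdim/dim libraries, and this ratio too was chosen after the values had been seen. *C8g*, the gene of the C8 gamma chain, had 34 to 70 counts per library (log2 fold change -0.21, 95% interval -1.11 to 0.69). The chains that complete the pore were nearly absent from the RNA. *C8a* had 0 to 6, *C8b* 0 to 3 and *C9* 0 to 5 counts per library, with the highest count of each in GR+/+ replicate 3, the deepest library and the one with the highest *Alb*.

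The promoters of *C6*, *C7*, *Cd55* and *Itgax* are shown because these genes were among the 6 with an unadjusted *p* under 0.05 and have an entry in the RefSeq promoter table for GRCm38.p6, in which 22 of the 31 genes were matched. Each line gives the 250 bases before the annotated start, 5′ to 3′ on the strand of the gene, and capitals mark matches to a searched motif on either strand. *C6* is read on the plus strand at chr15:4726960-4727209, *C7* on the minus strand at chr15:5063774-5064023, *Cd55* on the minus strand at chr1:130462745-130462994 and *Itgax* on the plus strand at chr7:128129300-128129549.
C6: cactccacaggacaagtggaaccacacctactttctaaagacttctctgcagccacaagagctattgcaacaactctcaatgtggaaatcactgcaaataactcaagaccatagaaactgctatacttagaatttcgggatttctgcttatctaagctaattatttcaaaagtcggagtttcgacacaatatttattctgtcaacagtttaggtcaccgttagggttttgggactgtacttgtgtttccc
C7: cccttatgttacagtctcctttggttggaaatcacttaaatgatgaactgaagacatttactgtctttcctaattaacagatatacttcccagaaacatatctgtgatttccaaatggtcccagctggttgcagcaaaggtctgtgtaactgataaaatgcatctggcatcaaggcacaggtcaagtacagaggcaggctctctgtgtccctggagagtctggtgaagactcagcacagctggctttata
Cd55: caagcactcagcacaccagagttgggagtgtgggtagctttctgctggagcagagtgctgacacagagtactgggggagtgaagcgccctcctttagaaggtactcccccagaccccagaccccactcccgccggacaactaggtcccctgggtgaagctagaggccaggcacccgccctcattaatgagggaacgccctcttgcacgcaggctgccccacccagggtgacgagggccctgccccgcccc
Itgax: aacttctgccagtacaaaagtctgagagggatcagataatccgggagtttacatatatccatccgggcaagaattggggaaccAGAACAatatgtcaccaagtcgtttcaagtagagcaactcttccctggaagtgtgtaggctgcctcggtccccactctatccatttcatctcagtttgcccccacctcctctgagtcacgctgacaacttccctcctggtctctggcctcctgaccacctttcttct

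The motifs searched were the glucocorticoid response element in its palindromic form (GNACA and TGTNC with 3 bases between), its single arm (AGAACA) and the interferon-stimulated response element (TTTC repeated with 2 bases between). The palindromic element was present in none of the 25 complement promoters, against 0.387% of the 32851 promoters of the table. At so low a share, most sets of 25 promoters would hold none, so its absence does not set these promoters apart. A single arm was present in 7 of the 25 (28%, against 16.1% of all) and an interferon-stimulated response element in 2 (8%, against 2.98%). The 7 promoters belong to 6 of the 22 genes, and *C1s1* is entered with overlapping windows that hold the same match. The capitals mark a single-arm match in *Itgax*, while *C6*, *C7* and *Cd55* held none of the 3. Such matches describe letters in a short window and are not binding sites, and GR can act from distant elements that were not searched.

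In the classical pathway, *C4b* was the gene with an unadjusted *p* under 0.05. C4 is cleaved by C1s and forms the C3 convertase together with C2. *C4b*, on chromosome 17 from 34728380 to 34743882 (ENSMUSG00000073418), had 336, 305 and 231 CPM in GR+/+ and 424, 394 and 409 CPM in GRdim/dim libraries, without overlap. The means were 291 ± 54.1 and 409 ± 15.1 CPM (SD, n = 3 each), and the GRdim/dim values lay close together. For *C4b* the log2 fold change was 0.49 (standard error 0.19, 95% interval 0.07 to 0.92, unadjusted *p* = 0.0266, adjusted *p* = 0.449 from edgeR). DESeq2 did not call it either (adjusted *p* = 0.328). Its paralog *C4a* shares 48.3% of the 31-base windows of *C4b* and was counted at 1.83 to 2.28 CPM, so reads from shared sequence cannot be fully assigned. *C2* had 8.74 to 11.5 CPM in GR+/+ and 11.6 to 16.2 CPM in GRdim/dim libraries (log2 fold change 0.38, 95% interval -0.15 to 0.91, adjusted *p* = 0.688 from edgeR). Its lowest GRdim/dim library exceeded the highest GR+/+ library by a margin smaller than the spread within a genotype.

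For the recognition and protease subunits of C1, no difference between genotypes was detectable. *C1qa*, *C1qb* and *C1qc*, the 3 chains of C1q that tissue macrophages make, had log2 fold changes of 0.01, 0.11 and 0.11 with 95% intervals of -0.84 to 0.86, -0.44 to 0.66 and -0.43 to 0.65. They are neighbours on chromosome 4, with gaps of 3.62 kb and 2.85 kb. *C1qc* and *C1qb* moved together in every library, with a ratio of 0.713 to 0.767. *C1qa* did not follow them, and its ratio to *C1qb* was 1.02, 0.996 and 1.26 in GR+/+ and 0.527, 0.871 and 1.66 in GRdim/dim libraries, a 3.14-fold range that came mainly from GRdim/dim replicates 1 and 3. The C1 proteases *C1ra* and *C1s1*, which are adjacent on chromosome 6, had 62.0 to 75.0 against 65.1 to 77.1 CPM and 86.9 to 124 against 104 to 147 CPM. Their log2 fold changes were 0.04 and 0.19 (95% intervals -0.32 to 0.39 and -0.25 to 0.63). Sequence windows shared with the duplicates *C1rb* and *C1s2*, which had 0 to 6 and 0 to 9 counts, make up 56.9% of *C1ra* and 33.5% of *C1s1*.

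*C3* encodes the protein on which all routes converge. The GR+/+ libraries had 867, 576 and 643 CPM and the GRdim/dim libraries 1442, 868 and 678 CPM. GRdim/dim replicate 1 stood above the other libraries, and the remaining libraries of both genotypes overlapped. The log2 fold change of 0.52 (standard error 0.29, 95% interval -0.12 to 1.16, adjusted *p* = 0.623 from edgeR) was 0.16 without this library. GRdim/dim replicate 1 also had the highest summed level of 10 interferon response genes (662 CPM, against 280.3 to 384 CPM in the other libraries) and of 10 neutrophil genes (1157 CPM, against 256 to 511 CPM). Their part in the *C3* values was not tested.

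Of the alternative pathway, *Cfd* stood apart through its spread. Factor D, also called adipsin, cleaves factor B and is made mainly by adipocytes. Its level was 80.6, 43.0 and 9.91 CPM in GR+/+ and 23.2, 5.52 and 125 CPM in GRdim/dim libraries, a 22.7-fold range that ran through both genotypes. The log2 fold change of 0.21 had a 95% interval of -3.23 to 3.64, and it was -1.63 without GRdim/dim replicate 3, 0.97 without GR+/+ replicate 1 and -1.22 with a term for sex in the fit. The 3 libraries marked as male had 23.2 to 125 CPM and the 3 marked as female 5.52 to 43.0 CPM. *Adipoq*, which encodes the adipocyte hormone adiponectin, had 8.49, 6.48 and 1.59 CPM in GR+/+ and 2.59, 0.166 and 8.65 CPM in GRdim/dim libraries, in the same order of libraries as *Cfd*. *Adipoq* was singled out from 8 adipocyte genes after its values had been seen, and the list as a whole did not keep this order. Its summed level was 142, 168 and 51.1 CPM in GR+/+ and 57.5, 48.0 and 161 CPM in GRdim/dim libraries, so that its highest library was GR+/+ replicate 2, while *Cfd* was highest in GRdim/dim replicate 3. Within the list, the transporter gene *Slc36a2* had 32.7 CPM in GRdim/dim replicate 2, where *Cfd* was lowest, against 17.5 to 43.3 CPM in the others. Of the list, 0 of the 7 tested had an unadjusted *p* under 0.05, against 4.91% of all genes with higher and 4.68% with lower expression. The amount of fat tissue in each piece of lung was not measured, and its part in the *Cfd* values was not tested.

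**Figure D3:**
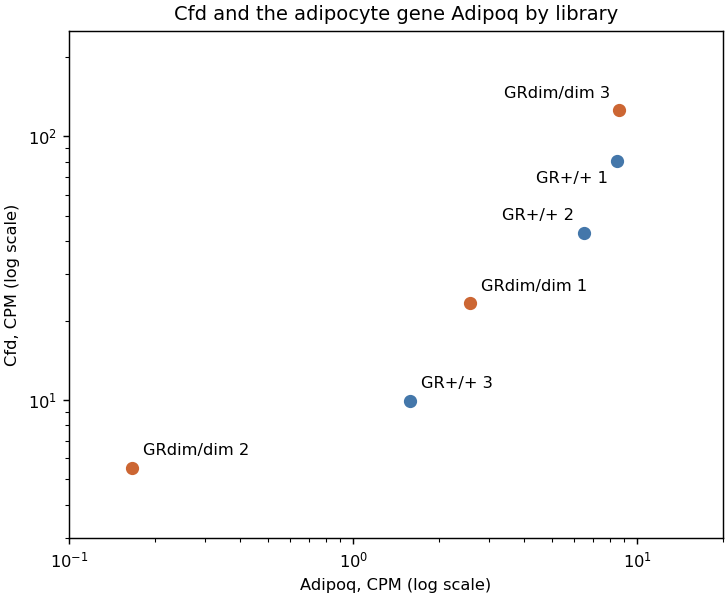
*Cfd* against *Adipoq* in CPM on log axes, with 1 point per library (blue GR+/+, orange GRdim/dim). Both genes have the same order of libraries, from GRdim/dim replicate 2 (5.52 and 0.166 CPM) to GRdim/dim replicate 3 (125 and 8.65 CPM), and the genotypes are mixed along it. The summed adipocyte list, not plotted, had its highest level in GR+/+ replicate 2 (168 CPM).

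*Cfp*, which encodes properdin, the stabilizer of the alternative convertase, had 17.9 to 28.2 CPM in GR+/+ and 19.0 to 32.3 CPM in GRdim/dim lungs (log2 fold change 0.19, 95% interval -0.37 to 0.74, adjusted *p* = 0.892 from edgeR). *Cfb* had 0.359, 0.300 and 1.24 CPM in GR+/+ and 1.99, 0.208 and 0.194 CPM in GRdim/dim libraries. These low counts are uncertain. The annotated gene *Gm20547* on the same strand covers 79.5% of the *Cfb* exons and 42.8% of the *C2* exons and was itself listed with 0 counts in every library, so reads from the shared exons may have been left out of both.

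Among the regulators, *Cd55* had the largest log2 fold change. It encodes decay-accelerating factor, which breaks up C3 convertases on host cells, and lies on chromosome 1 from 130439027 to 130462744 (ENSMUSG00000026399). It had 59.6, 59.7 and 77.8 CPM in GR+/+ and 91.4, 82.3 and 81.9 CPM in GRdim/dim libraries. The genotypes did not overlap, although GR+/+ replicate 3 came close to the GRdim/dim libraries. At a log2 fold change of 0.37 (standard error 0.17, 95% interval 0.00 to 0.75, unadjusted *p* = 0.0493, adjusted *p* = 0.520 from edgeR), the unadjusted *p* held under 0.05 for 2 of the 6 choices of a library to leave out. *Cr1l*, the mouse regulator Crry that also acts on C3 convertases, had 88.9 to 96.4 CPM in GR+/+ and 88.9 to 133 CPM in GRdim/dim lungs (log2 fold change 0.23, 95% interval -0.18 to 0.63). *Cd59a*, which blocks the membrane attack complex, and *Cd46*, a cofactor for cleavage of C3b, had log2 fold changes of -0.02 and -0.14 (95% intervals -0.57 to 0.53 and -0.82 to 0.54). *Cd46* was low, with 59 to 139 counts per library. Exons of *A330023F24Rik* (218 to 830 counts) on the opposite strand cover 14.2% of the *Cd46* exons, and the strand setting is not given.

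The abundant soluble regulators showed no difference beyond the spread between mice. *Serping1* had 530.4, 394 and 298 CPM in GR+/+ and 504, 442 and 401 CPM in GRdim/dim libraries (log2 fold change 0.14, 95% interval -0.37 to 0.65, adjusted *p* = 0.919 from edgeR). *Clu* had 454 to 579 CPM in GR+/+ and 454 to 770.4 CPM in GRdim/dim libraries, with the highest value in GRdim/dim replicate 3 (log2 fold change 0.18, 95% interval -0.33 to 0.70, adjusted *p* = 0.879 from edgeR). *Cfi*, the protease that inactivates C3b and C4b, had 11 to 46 counts per library (log2 fold change -0.12, 95% interval -1.17 to 0.94).

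Among the receptors, *Itgax* was higher in every GRdim/dim library. It encodes CD11c, the alpha chain of complement receptor 4, and is carried by dendritic cells and alveolar macrophages. Located on chromosome 7 from 128129547 to 128150657 (ENSMUSG00000030789), it had 29.9, 26.4 and 22.6 CPM in GR+/+ and 43.0, 34.8 and 31.1 CPM in GRdim/dim libraries. In edgeR the log2 fold change was 0.47 (standard error 0.20, 95% interval 0.03 to 0.91, unadjusted *p* = 0.0402, adjusted *p* = 0.491), and leaving out a library kept the unadjusted *p* under 0.05 in 2 of 6 cases. Of 8 dendritic cell genes, 4 had an unadjusted *p* under 0.05 with higher expression and none with lower expression. Over all genes tested, these shares were 4.91% and 4.68%. The log2 fold change was above 0 for 6 of the 8 and below 0 for 2, *Zbtb46* (-0.27) and *Clec9a* (-0.35). The summed level of the 8 genes was 92.0 to 144 CPM in GR+/+ and 129 to 159 CPM in GRdim/dim lungs. Among the 4 with a *p* under 0.05, *Cd207*, which encodes langerin, was called by edgeR (1.08 to 1.68 CPM in GR+/+ and 4.91 to 6.91 CPM in GRdim/dim lungs, adjusted *p* = 0.0423). Of 10 alveolar macrophage genes, 1 was higher and 1 lower at that level, and 7 had a log2 fold change below 0. The higher gene was *Car4* (mean 186 CPM in GR+/+ and 307 CPM in GRdim/dim lungs) and the lower *Chil3* (253 and 138 CPM). These opposite differences both enter the summed level, which was 521 to 603 CPM in GR+/+ and 502 to 625 CPM in GRdim/dim lungs. None of these markers was at 0, and their part in the *Itgax* values was not tested.

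The anaphylatoxin receptors were low. *C5ar1* had 16.7, 9.65 and 9.08 CPM in GR+/+ and 25.1, 13.2 and 12.1 CPM in GRdim/dim libraries, with the highest value in GRdim/dim replicate 1, the library with the highest neutrophil genes. Its log2 fold change was 0.51 (95% interval -0.24 to 1.27, adjusted *p* = 0.708 from edgeR). It was 0.11 without that library and 0.85 without GR+/+ replicate 1. The part of neutrophils in the *C5ar1* values was not tested. *C5ar2*, the second C5a receptor, whose gene lies 2.59 kb from *C5ar1*, had 2.38 to 4.42 CPM in GR+/+ and 3.75 to 4.47 CPM in GRdim/dim lungs (log2 fold change 0.45, 95% interval -0.31 to 1.203). *C3ar1*, the C3a receptor, had 2.52 to 4.84 and 2.45 to 4.31 CPM (log2 fold change -0.11, 95% interval -0.93 to 0.70).

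**Figure D4:**
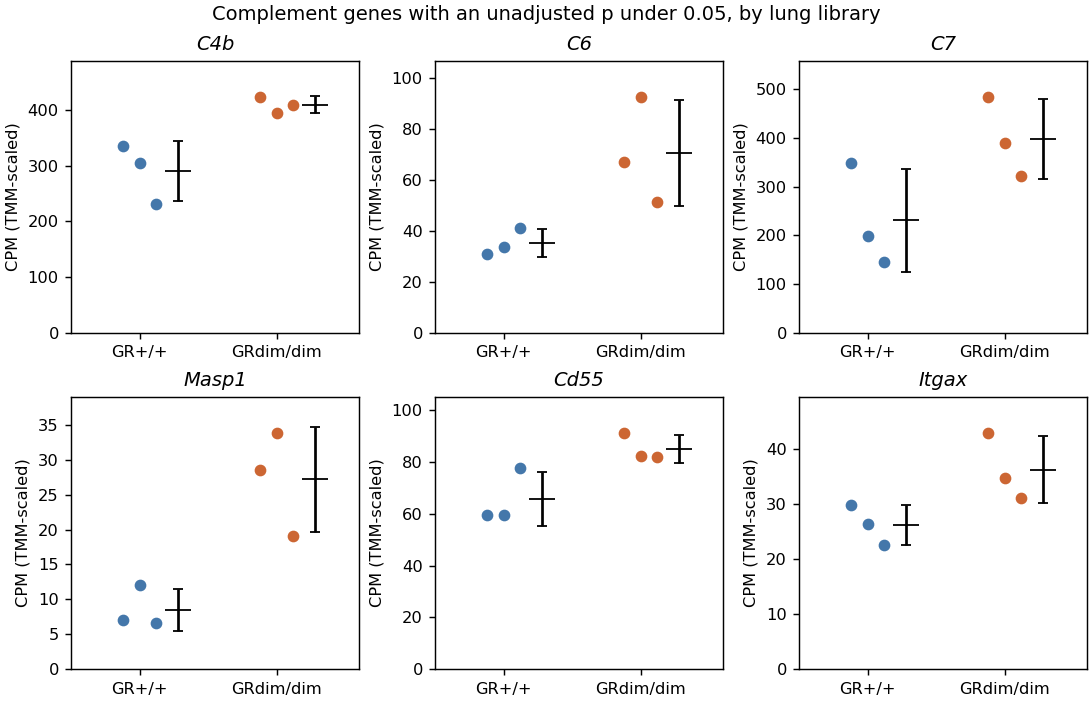
Level in CPM of the 6 complement genes with an unadjusted edgeR *p* under 0.05, with 1 point per library in the order of replicates 1 to 3 and black bars for the mean and SD of each genotype (n = 3). All GRdim/dim points lie above all GR+/+ points except for *C7*, where GR+/+ replicate 1 (348 CPM) lies above GRdim/dim replicate 3 (321 CPM).

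Markers of other cell types and of the interferon response were set beside these 6 genes, each list with its number at an unadjusted *p* under 0.05. Over all genes tested, 4.91% were higher and 4.68% lower at this level. In the B cell, T cell, interferon response and neutrophil lists, all genes at this level were higher in GRdim/dim lungs. Of 9 B cell genes 6 were higher and none lower, of 8 T cell genes 4 and none (summed level 23.7 to 41.6 CPM in GR+/+ and 46.0 to 63.8 CPM in GRdim/dim lungs), of 10 interferon response genes 4 and none (280.3 to 348 and 314 to 662 CPM), and of 8 tested neutrophil genes 3 and none (256 to 511 and 367 to 1157 CPM). The summed B cell and T cell levels did not overlap between genotypes. Of 10 fibroblast genes, none had an unadjusted *p* under 0.05 in either direction, and their summed level was 2372 to 3788 CPM in GR+/+ and 2955 to 3104 CPM in GRdim/dim lungs. Of 6 mesothelial genes, 2 were higher at that level, with summed levels of 252 to 391 and 333 to 438 CPM. Of 8 endothelial genes, 1 was higher and 1 lower at that level, and 7 had a log2 fold change below 0. Of 12 monocyte and interstitial macrophage genes, 1 was higher, with summed levels of 3581 to 3957 and 3902 to 4235 CPM. Apart from the neutrophil gene *Camp*, all these markers had counts in every library. The part of these cells and of the interferon response in the values of the 6 genes was not tested.

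With the difference between *Xist* and Y-linked expression added to the edgeR model as a term for sex, the log2 fold changes were 1.84 for *Masp1*, 1.14 for *C6*, 0.68 for *C7*, 0.43 for *C4b*, 0.40 for *Cd55* and 0.40 for *Itgax*. The unadjusted *p*-value remained under 0.05 for *Masp1*, *C6* and *C7* (0.000152, 0.000298 and 0.0345) and was 0.0731, 0.0738 and 0.0967 for the others. For all 6 genes the log2 fold change stayed above 0 with any library left out, from 0.31 for *Cd55* to 2.01 for *Masp1*.

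**Figure D5:**
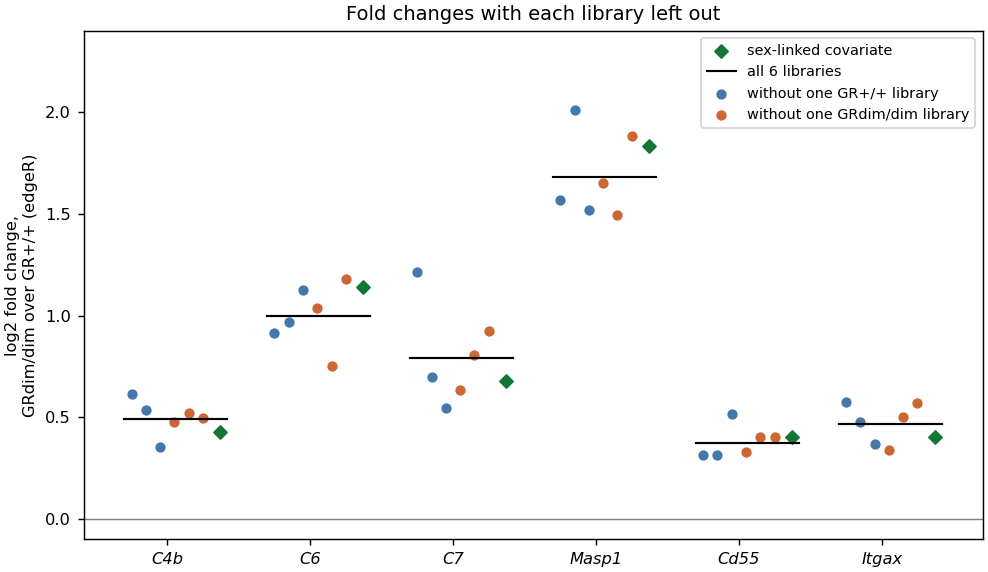
Log2 fold changes of the same 6 genes from edgeR with all libraries (black line), with each library left out in turn (blue for a GR+/+ and orange for a GRdim/dim library) and with a sex-linked covariate (green diamond). *Masp1* lies between 1.49 and 2.01, and *C7* moves most, to 1.22 without GR+/+ replicate 1.

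A further 31 complement genes outside this set were examined as the rest of the pathway. Of these, 18 were tested, none was called by edgeR or DESeq2, and an unadjusted edgeR *p* under 0.05 was found with higher expression for 3 (16.7% of the 18, against 4.91% of all genes) and with lower expression for 1 (5.56%, against 4.68%), a share close to that of all genes. *Cr2*, the complement receptor of B cells and follicular dendritic cells, had 0.896, 1.199 and 1.33 CPM in GR+/+ and 3.45, 3.82 and 2.39 CPM in GRdim/dim libraries (log2 fold change 1.48, standard error 0.38, adjusted *p* = 0.224 from edgeR). The 9 B cell genes examined had a summed level of 61.7 to 145 CPM in GR+/+ and 156 to 483 CPM in GRdim/dim lungs, 6 of them with an unadjusted *p* under 0.05 and all counted in every library. *Itgam*, the CD11b chain of complement receptor 3 on neutrophils and monocytes, had 12.4, 11.0 and 6.89 CPM in GR+/+ and 27.4, 13.9 and 18.3 CPM in GRdim/dim libraries (log2 fold change 0.98, standard error 0.31, adjusted *p* = 0.342 from edgeR), beside 3 of 8 tested neutrophil genes with an unadjusted *p* under 0.05. Both genes lay higher in GRdim/dim lungs without overlap, as did *Ptx3*, which makes 3 of the 18 (16.7%, against 7.77% of all genes). *Cpn1* and *C4a* lay lower without overlap, 2 of the 18 (11.1%, against 7.05% of all genes). The part of B cells and neutrophils in the *Cr2* and *Itgam* values was not tested.

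*Ptx3*, a pentraxin that binds C1q, was low, with 11 to 14 counts in GR+/+ and 29 to 43 counts in GRdim/dim libraries (log2 fold change 1.51, standard error 0.44, adjusted *p* = 0.300 from edgeR). *Cpn1*, the catalytic subunit of the carboxypeptidase that inactivates C3a and C5a, was the one with lower expression at an unadjusted edgeR *p* under 0.05. It had 6.27, 6.12 and 8.39 CPM in GR+/+ and 3.45, 4.69 and 4.65 CPM in GRdim/dim libraries (log2 fold change -0.70, standard error 0.29, adjusted *p* = 0.471 from edgeR).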

How the data were processed

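Lungs of 6 mice were sequenced from poly(A)-selected RNA by a commercial provider. The deposited table holds whole-number read counts per gene that the authors made from reads on the mm10 build, per the labels and the processing notes, which also name DESeq2. The aligner, counter and strand setting are not given in the sources used here. Counts were tested in edgeR 4.0.16 (TMM scaling, filterByExpr, robust quasi-likelihood F-test, genotype only, R 4.3.3) with Benjamini-Hochberg adjustment over the 16568 genes tested. A call required an adjusted *p* below 0.05 and a log2 fold change beyond 0.5. CPM values are TMM-scaled, and intervals cover 95%. Other settings were DESeq2 1.42.0, the edgeR likelihood-ratio test, RLE scaling, other count filters, no fold threshold, a replicate block, a term for sex, and each library left out with both tools.

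In simulated counts, edgeR found 34.6% of the 2-fold and 86.4% of the 4-fold changes set among 16326 genes, with 7.00% false calls (DESeq2 50.6%, 88.4% and 18.2% among 16564 genes). Pairs of libraries of 1 genotype differed far beyond counting noise, with a chi-square per degree of freedom of at least 20.7, so each was counted as a sample of its own. The *p*-values measure the spread between these 6 lungs. The 31 genes, the further complement genes and the marker lists were chosen with earlier results of these data known. Genes were named where the unadjusted *p* was under 0.05, where the genotypes did not overlap or where any setting called them, and the remaining complement genes by their range. Overlap of exons and of 31-base windows was computed on GENCODE M21 (GRCm38), in which 30 of the 31 genes had the deposited coordinates and length. Some results on single genes and motifs are not reported here.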

Additional observations from a re-analysis of the deposited data

How the results depend on the processing

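With 3 lungs per genotype, a 2-fold difference in a gene of moderate spread was often not detectable, and for genes under 50 counts (*Masp2*, *Cfi*, *Ptx3*) counting error adds to this. No complement gene was called with RLE scaling, at least 10 counts in every library, the term for sex, no fold threshold, or any library left out in edgeR. Without the filter on low counts 3 were called (*Masp1*, *C6* and *C7*), with DESeq2 2, with the likelihood-ratio test 2 and with any library left out in either tool 0 to 2. The replicate numbers did not pair the libraries (same-number correlations 0.217, 0.0361 and -0.0548), and the replicate block called 1 gene, *Masp1* (log2 fold change 1.69, adjusted *p* = 0.0346). An unadjusted *p* under 0.05 was found for 3 genes with the term for sex and for 2 (edgeR, without GRdim/dim replicate 1) to 7 genes with a library left out. Of the other complement genes, 1 was called without the filter, 1 with the likelihood-ratio test and 0 to 1 with a library left out. Outside the main edgeR fit and DESeq2 with all libraries, the share of all genes at these thresholds was not determined. The counts in those settings therefore cannot be read as more or fewer than among all genes.

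Genes near 0 changed sign in some settings. With the term for sex the log2 fold change was -0.21 for *C1qa*, -0.049 for *C1qb*, -0.028 for *C1qc*, -0.036 for *Cfp*, -1.22 for *Cfd* and 0.081 for *Cd59a*, and with the replicate block it was -0.094 for *C1qa* and -0.82 for *Cfd*. With a library left out it lay between -0.59 and 0.29 for *C1qa*, -0.038 and 0.40 for *C1qb*, -0.021 and 0.35 for *C1qc*, -0.046 and 0.11 for *C1ra*, -1.63 and 0.97 for *Cfd*, -0.35 and 0.23 for *Cfi*, -0.042 and 0.38 for *Serping1*, -0.16 and 0.16 for *Cd59a*, -0.37 and 0.028 for *Cd46*, -0.084 and 0.33 for *Clu*, -0.37 and 0.18 for *C3ar1* and -0.033 and 0.27 for *Colec12*. The cause was not tested. None of the 6 genes with an unadjusted *p* under 0.05 changed sign in any setting.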
